A study of Rattus norvegicus with 2 samples.

Results

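The regions described here are compact patches of H3K27me3, that is of histone H3 trimethylated at lysine 27, in rat sciatic nerve. They were taken from 1 deposited list of 90174 regions in which tags of an H3K27me3 ChIP-seq exceeded tags of the input, that is of chromatin sequenced without antibody. Listed regions on the 20 autosomes with a gap of 3 kb or less between them were joined into domains. Members were chosen by their width and by the span of their domain: a member is a region 2 to 5 kb wide in a domain spanning less than 20 kb. The rule found 1245 members, which is 1.39% of the 89523 autosomal regions and 65.5% of the 1900 autosomal regions of this width. The remaining 655 regions of 2 to 5 kb lay in domains of 20 kb or more. The members covered 3.67 Mb and held 10.7% of the ChIP tags found in autosomal regions.

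H3K27me3 is written by Polycomb repressive complex 2, whose catalytic subunit is EZH2 or EZH1 and which needs the subunits EED and SUZ12. Polycomb repressive complex 1 can bind the mark, and genes that carry it at their promoters are usually silent or poorly expressed. In vertebrates much of the mark lies at CpG-rich promoters of developmental regulators, where it forms patches of different width. In Schwann cells, the glia of peripheral nerve, Polycomb repressive complex 2 is known to hold down genes that are induced after nerve injury.

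The series holds 2 ChIP libraries in 1 group, prepared from the freshly dissected sciatic nerve of rats that were male and of the Sprague Dawley strain. The labels name no treatment or genotype, give P28 in a passage field without saying what it means for tissue, and do not say whether each library came from 1 animal or from several. Directory names in the header of the list carry the word Sham. Whole nerve holds Schwann cells, fibroblasts, perineurial, endothelial and immune cells, so a region marked weakly in all cells and one marked strongly in a few cannot be told apart. The list was called on 46.8 M combined ChIP tags against 41.2 M combined input tags. It has no value per library, so no spread between replicates can be given, and nothing is tested here. Intervals are 95% intervals for counting error only, and an SD over autosomes says nothing of animals. The sources used here do not name the genome build. Genes, markers of nerve cells and sequences at these positions were therefore not analysed here.

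The width and the place of a region decided whether it was a member, and both come from the ChIP and input tags that called it. Density, input, ratio and spacing of the members are for this reason given as a description. A typical member was 2727 bp wide, with quartiles of 2297 and 3454 bp. It held 441 ChIP tags (quartiles 341 and 587) and 39 input tags (30 and 51). ChIP density had a median of 155 tags per kb, with quartiles of 138 and 181. From 9 to 366 input tags lay under each member, so none of the 1245 rests on the value of 0.5 that the list writes for an input of 0. Pooled over the members, the ChIP to input ratio, in which each kind of tag is divided by its total, was 10.3 (10.2 to 10.4).

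The fold over input given in the authors' list had a median of 10.05 in the members, with quartiles of 8.14 and 12.65 and a range from 4.59 to 40.46. A fold of 10 or more was reached by 628 of the 1245 members (50.4%). The same fold was reached by 37.9% of all autosomal regions, many of which have few input tags. Among the 655 regions of the same width in domains of 20 kb or more it was reached by 43.5%. The calls that chose the members also give this fold, and nothing is read from these differences.

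Wider members were denser. The 469 members of 2 to 2.5 kb had a median of 146 ChIP tags per kb (quartiles 131 and 169.9), and the 280 members of 2.5 to 3 kb had 154 (136 and 175). The median was 158 in the 198 members of 3 to 3.5 kb and 163 in the 136 members of 3.5 to 4 kb. It was 180.2 in the 162 members of 4 to 5 kb (quartiles 159 and 204). The quartile ranges of neighbouring classes overlapped, and so did those of the narrowest and the widest class. Input changed little across the classes, with medians from 13.3 to 13.9 tags per kb, while the pooled ratio went from 9.33 (9.17 to 9.49) in the narrowest class to 11.6 (11.4 to 11.9) in the widest. Over the 1245 members the Spearman correlation of width with ChIP density was 0.32, and that of width with input density was 0.0108. All points share 1 ChIP and 1 input pool. A wide region exists in this list where many neighbouring windows passed the tag minimum, so width and density come from the same tags. The part of this in the rise of density with width was not tested.

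**Figure D1:**
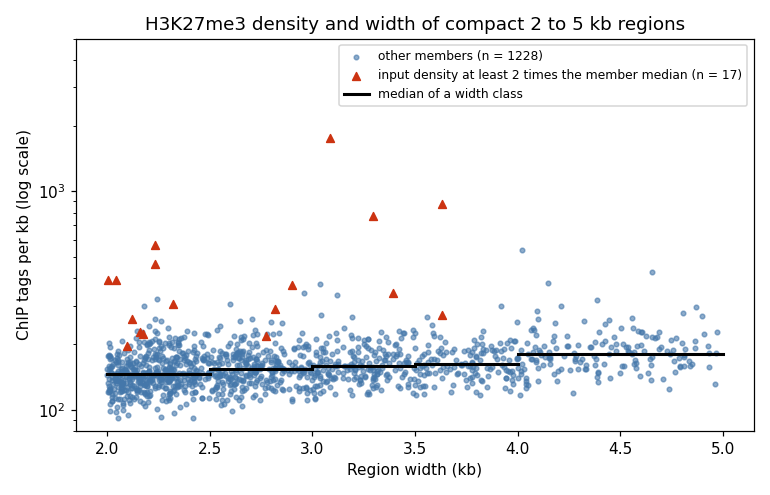
ChIP tags per kb (log scale) against width in kb for each of the 1245 members, with black lines at the median of each width class and triangles at the 17 members whose input density was at least 2 times the member median. The class medians climb from 146 to 180.2 tags per kb, and the 3 highest points are triangles.

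The limits of the rule cut through a continuous range of values. The narrowest member, on chromosome 5 from 64505399 to 64507399, was exactly 2000 bp wide and held 144.5 ChIP tags per kb at a ratio of 11.1 (7.22 to 17.7). A region on chromosome 8 from 50821140 to 50823139, 1999 bp wide and thus outside the rule, held 156 tags per kb at a deposited fold of 8.55. At the upper limit, the member on chromosome 4 from 30367530 to 30372504 was 4974 bp wide with 228 tags per kb and a ratio of 10.4 (8.43 to 12.9). The next wider region in a domain under 20 kb, on chromosome 20 from 33555915 to 33560917, measured 5002 bp with 207 tags per kb and a deposited fold of 10.97. The member with the widest domain, on chromosome 12 from 44321599 to 44325005, lay in a span of 19997 bp and had 199 tags per kb at a ratio of 14.6 (10.6 to 20.5). The region of 2 to 5 kb whose domain was next in span, 20083 bp, ran from 91819343 to 91822634 on chromosome 1 and held 175 tags per kb at a deposited fold of 14.45.

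Few members stood alone. Only 38 of the 1245 (3.05%) were the single region of their domain, and 1207 had companions within reach of the 3 kb merging distance. The members fell into 1112 domains with a median span of 8515 bp (quartiles 5671 and 12782 bp), a median of 5 listed regions (3 and 8) and a median of 60.3% of the span inside regions. In 1074 cases (86.3%) the member was the widest region of its domain, and 42 members shared their domain with a region over 5 kb. A member held a median of 63.7% of the ChIP tags in the regions of its domain, with quartiles of 44.8% and 80.8%. The rule favours both results, since it asks for 2 kb or more in a list whose median region was 150 bp wide. The same shares were not computed for other classes. Among the 1097 members in domains of 3 or more regions, 841 lay inside the domain and 256 (23.3%) were its first or last region. In the list, the typical arrangement was thus a patch of 2 to 5 kb with listed regions on both sides. The sample labels give chromatin fragments of 0.5 to 2 kb. The median gap from a member to the nearest listed region, 0.347 kb, and the median companion width, 214 bp, are both below that. Whether such neighbours are separate on the chromatin was not tested.

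Most companions were narrow, as were most listed regions. Of 5422 companion regions, 4132 (76.2%) were under 500 bp and 2019 (37.2%) had the caller's peak size of 150 bp or less. The median width was 214 bp in companions against 150 bp in all autosomal regions, whose upper quartile was 260 bp. Narrow widths were thus not particular to companions. Pooled ratios were 8.25 (7.99 to 8.52) for companions of 150 bp or less, 8.37 (8.18 to 8.56) for those over 150 and under 500 bp, and 8.33 (8.20 to 8.47) for the 1250 companions of 0.5 to 2 kb. The members with companions had a pooled ratio of 10.3 (10.2 to 10.4), and the 40 companions over 5 kb had 13.1 (12.7 to 13.5). Median ChIP density was 127, 129 and 126 tags per kb in the 3 narrow classes, 155 in the members and 211 in the companions over 5 kb.

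Members with and without companions had much the same density. Those alone in their domain had a median of 156 ChIP tags per kb and a pooled ratio of 11.1 (10.5 to 11.7). The 560 members with 2 to 5 regions in their domain had 154 tags per kb and a ratio of 10.5 (10.3 to 10.6). The 515 with 6 to 10 regions had 159 at 10.2 (10.1 to 10.4), and the 132 with more than 10 regions had 150.3 at 9.62 (9.36 to 9.89). The ratio was thus lowest in the most fragmented domains, where input was highest, at 15.3 tags per kb against 13.3 in the members that stood alone. By span, the median density went from 146 tags per kb in the 213 members of domains under 5 kb to 163 in the 238 members of domains of 15 to 20 kb. The pooled ratios of these 2 classes, 10.0 (9.78 to 10.2) and 10.3 (10.1 to 10.5), had overlapping intervals. Pooled input was 13.9 and 15.2 tags per kb, and median width 2498 and 2795 bp.

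Single members show the range of surroundings. The member nearest to the median in width and density, on chromosome 10 from 107757992 to 107760709, held 423 ChIP tags and 26 input tags, a ratio of 14.3 (9.63 to 22.2). It had 1 companion and lay 4.31 kb from a domain of 20 kb or more, so only the merging distance kept it apart. The most isolated member, on chromosome 8 from 72072236 to 72074574, lay 104.1 kb from any listed region with 163 tags per kb and a ratio of 9.33 (6.62 to 13.5). The next most isolated were a member of chromosome 1 from 169349992 to 169352721, with a gap of 80.2 kb and a ratio of 9.48 (6.85 to 13.5), and one of chromosome 3 from 87531296 to 87533896, with a gap of 50.7 kb and a ratio of 18.5 (12.4 to 28.9). Gaps of 43.7 kb and 40.1 kb surrounded members of chromosome 10 from 45282338 to 45286094 and of chromosome 8 from 116213092 to 116215162, at ratios of 9.49 (6.96 to 13.2) and 10.1 (6.54 to 16.4). The intervals of these 5 isolated members overlap. At the other end, a member of chromosome 17 from 11366949 to 11368966 lay in a span of 18.1 kb that held 20 listed regions in all. Its density was 148 tags per kb and its ratio 9.36 (6.35 to 14.3). The 2 members that followed, both on chromosome 1, lay in domains of 18 and 16 regions, from 242118465 to 242121295 at a ratio of 8.14 (6.09 to 11.1) and from 141897469 to 141899675 at 7.87 (5.59 to 11.4).

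**Figure D2:**
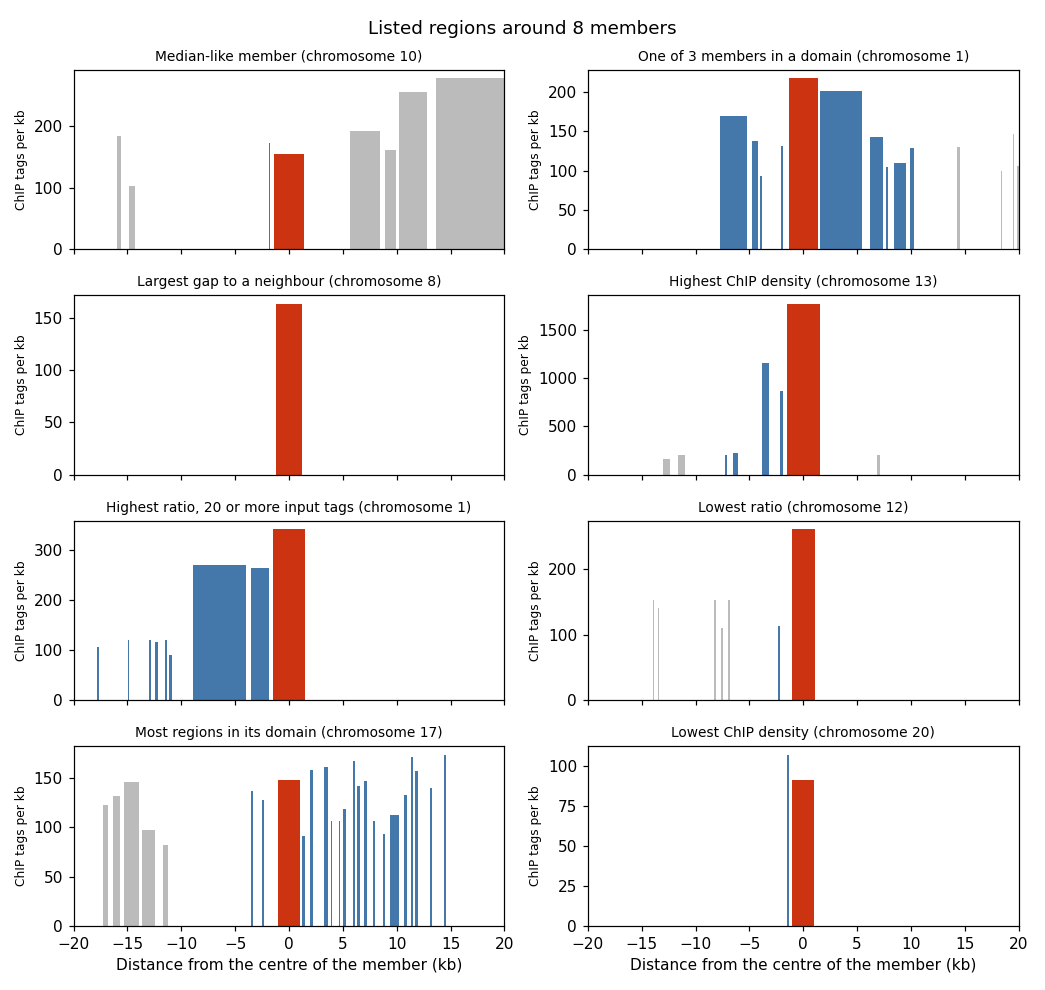
ChIP tags per kb of the listed regions within 20 kb of the centre of 8 members, against distance from that centre in kb, with the member in red, regions of its domain in blue and regions outside the domain in grey. Vertical scales differ between panels. The most isolated member has no listed region in view, while the member of chromosome 17 is 1 of 20 regions in its domain.

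More than 1 member lay in 125 domains, 117 with 2 members and 8 with 3, which together hold 258 members. Members that share a domain may be parts of 1 marked stretch, which was not tested. In the 117 domains with 2, the gap between the members had a median of 0.931 kb and ran from 0.221 to 10.7 kb. The denser member had a median of 1.20 times the ChIP density of the other (quartiles 1.11 and 1.34, largest 2.21). The counting interval of this density ratio included 1 in 35 of the 117 domains and lay above 1 in 82. The denser member was also the wider in 62 of 117. It had the higher ChIP to input ratio in 85 of 117. The intervals of the ratios were apart in only 13, of which 12 had the higher ratio in the denser member. The denser member was picked by ChIP density, so the density ratio cannot fall below 1. ChIP tags are also the numerator of the ChIP to input ratio, so that choice favours the counts of 85 and 12, and nothing is read from them.

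The largest difference in density within a domain lay on chromosome 8. There 376 tags per kb were found in the member from 115340430 to 115343467, against 169.9 in the member from 115346567 to 115348815, a density ratio of 2.21 (1.97 to 2.49). Their ChIP to input ratios were 14.3 (11.3 to 18.5) and 7.81 (5.69 to 11.0). On chromosome 1 the member from 272927006 to 272929251 held 322 tags per kb, 2.18 times (1.95 to 2.44) the 147 of its neighbour 0.98 kb away. Differences in input entered other pairs. On chromosome 6 the member from 58504997 to 58507533 had a ratio of 22.5 (14.9 to 35.8) on 23 input tags, while its partner from 58501885 to 58504239 had 7.25 (5.33 to 10.1) on 46. Density in that pair differed by 1.44 times (1.27 to 1.65). The highest ratio among members with 20 or more input tags belonged to a pair on chromosome 1. The member from 244366651 to 244369611 held 342 ChIP tags per kb and 7.43 input tags per kb, a ratio of 40.5 (26.6 to 64.9) on 22 input tags. Its partner from 244359231 to 244364132 held 269.9 ChIP and 16.7 input tags per kb, a ratio of 14.2 (11.3 to 18.0). In this pair the ChIP density differed by 1.27 times (1.17 to 1.38), so most of the difference in ratio lay in the input.

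Of the 8 domains with 3 members, the first 5 in text order of chromosome and start are given here. On chromosome 1, the span from 86695956 to 86711096 held members with 134, 163 and 148 tags per kb. The span from 228780578 to 228798534 on the same chromosome held members with 169 (from 228780578), 218 (from 228786947) and 202 (from 228789846) tags per kb. Members of the chromosome 10 span from 102980508 to 102997130 had 129.7, 145 and 132 tags per kb, and those of the chromosome 14 span from 77611426 to 77626577 had 131, 181 and 135. The largest relative difference among these 5 lay on chromosome 2 between 239699371 and 239717831, where the members had 133, 207 and 163 tags per kb.

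Density varied among members by far more than counting error. The coefficient of variation of ChIP density was 40.8%, against 4.62% that counting alone would give. For input density it was 39.2%, against 15.8% from counting. A small number of members with high input carried much of this spread. In 17 members (1.37%) the input density was at least 2 times the member median, that is 27.4 tags per kb or more. Without them the coefficient of variation fell to 23.4% for ChIP and 27.6% for input, both still above the 4.68% and 16.0% from counting. The 17 were picked by input density, which favours the fall for input. They include the densest member of all, with 1766 ChIP tags per kb, whose part in the fall for ChIP was not computed. The 17 had a median ChIP density of 343 tags per kb, against 155 in the other 1228, and a median deposited fold of 7.50 against 10.07. More than 300 ChIP tags per kb were found in 19 members, of which 10 were among the 17.

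The densest members were among those with high input. The highest ChIP density, 1766 tags per kb (1719 to 1813), lay on chromosome 13 from 95724288 to 95727376. The same member had the highest input density, 118.5 tags per kb, and its ratio was 13.1 (11.8 to 14.6), against 10.3 pooled over all members. The second, 42.8 kb away from 95677824 to 95681457, held 878 ChIP tags per kb (848 to 909) and 40.5 input tags per kb, at a ratio of 19.1 (16.2 to 22.7). The third and the fourth lay on chromosome 20. The member from 6726859 to 6730156 held 769.8 ChIP and 49.4 input tags per kb at a ratio of 13.7 (11.7 to 16.1), and the one from 6847691 to 6849923 held 566 and 50.6 at 9.83 (8.10 to 12.02). The fifth, on chromosome 2 from 71163329 to 71167350, was the only one of the 5 outside the high-input set, with 539 ChIP tags per kb (516 to 562), 24.6 input tags per kb and a ratio of 19.3 (15.7 to 23.8).

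High input was concentrated in place. Of the 17 members, 10 lay on chromosome 20, between 139017 and 7399980, and 6 of these lay in the single 1 Mb bin from 6000001 to 7000000. That bin held 7 members with input densities from 11.4 to 50.6 tags per kb and a pooled ratio of 9.33 (8.65 to 10.1). The other listed regions of that bin had a median input density of 15.8 tags per kb. In the chromosome 13 bin from 95000001 to 96000000, 2 of 4 members had high input, and the other listed regions had a median of 13.3 input tags per kb. Those medians are close to the member median of 13.7, but single regions outside the member set had high input too, up to 82.8 tags per kb in the chromosome 13 bin and 60.0 in the chromosome 20 bin. In the domain of the densest member, 2 narrower companions held 1155 and 864 ChIP tags per kb. Over all members the Spearman correlation of input density with ChIP density was 0.18, and it was not computed for the 17 high-input members. The part of input in their ChIP density was not tested.

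**Figure D3:**
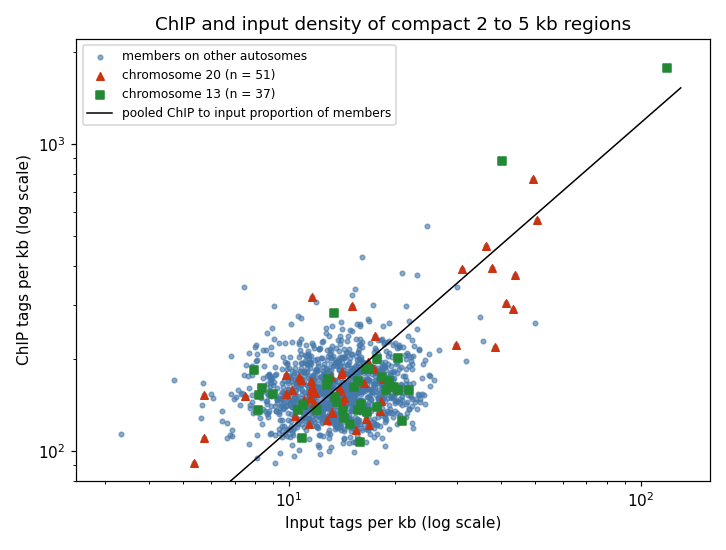
ChIP tags per kb against input tags per kb (both log scales) for the 1245 members, with those of chromosome 20 as triangles and those of chromosome 13 as squares. The line marks the pooled proportion of ChIP to input tags in the members. The points at the upper right reach 1766 ChIP and 118.5 input tags per kb and lie on both sides of the line, with ratios from 4.59 to 19.1 among the 17 members of high input.

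Outside the high-input set, the 4 densest members after the one on chromosome 2 held 342 to 427 ChIP tags per kb. On chromosome 17 the member from 87101658 to 87106312 had a density of 427 tags per kb (409 to 446) and a ratio of 23.3 (18.5 to 29.8), and a region of 5 kb or wider lay 0.886 kb away. On chromosome 7 the member from 34788047 to 34792194 held 379.8 (361 to 399) at 15.9 (12.8 to 19.99), with such a region 0.333 kb away. The member of the chromosome 8 pair described above followed with 376 (354 to 398), and the chromosome 1 member with the ratio of 40.5 came next with 342 (321 to 364). The members named here on chromosomes 2, 17 and 7 measured 4.02, 4.65 and 4.15 kb. Those on chromosomes 8 and 1 were narrower, at 3.04 and 2.96 kb. The nearest region of 5 kb or wider lay 5.17 kb from the chromosome 2 member. From the chromosome 8 and chromosome 1 members it lay 7801 and 1133 kb away.

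The 5 members with the highest ratios had input densities below the member median of 13.7 tags per kb. Input is the denominator of the ratio, so this ranking favours low input. These 5 members rest on 20 to 44 input tags. After the chromosome 1 member, the highest ratio among members with 20 or more input tags was 28.9 (21.4 to 39.9), on chromosome 7 from 71010002 to 71014871, with 297 ChIP and 9.04 input tags per kb. The next 3 were on chromosome 12 from 18802228 to 18804777 at 24.7 (16.2 to 39.7), on chromosome 8 from 129316908 to 129319704 at 24.7 (16.6 to 38.4) and on chromosome 17 from 9688041 to 9690517 at 24.1 (15.5 to 39.8). Their intervals overlap with that of the first, so the order of the 5 is not resolved at this depth.

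The lowest ratios came close to the fold of 4 that the caller required. The lowest, 4.59 (3.72 to 5.70), belonged to a member near the start of chromosome 12, from 54543 to 56665, which had a ChIP density of 261 tags per kb above the member median and an input density of 49.95, among the 3 highest. Chromosome 4 held the next 3. The member from 241375891 to 241378153 had a ratio of 4.595 (3.26 to 6.62) and 92.4 ChIP tags per kb, the one from 241598391 to 241600698 had 4.65 (3.45 to 6.38) and 119 tags per kb, and the one from 228091182 to 228093325 had 4.86 (3.56 to 6.75) and 124 tags per kb. The fifth, on chromosome 18 from 64572535 to 64574720, had 4.87 (3.48 to 6.97). The 4 members on chromosomes 4 and 18 had input densities of 17.7, 22.5, 22.4 and 18.8 tags per kb in the order given. All 5 thus lay above the upper member quartile of 16.6, which a ranking by lowest ratio favours.

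The least dense members did not all have low ratios. On chromosome 20 the member from 47520175 to 47522228 held 91.6 ChIP tags per kb (79.0 to 106), the lowest of all, but only 11 input tags, and its ratio was 15.03 (8.21 to 30.6). A member of chromosome 3 from 176118528 to 176120947 held 91.8 (80.1 to 105) at a ratio of 8.88 (5.72 to 14.5). The chromosome 4 member with a ratio of 4.595 was the next in density. It was followed by members of chromosome 17 from 14695847 to 14697949, with 94.7 tags per kb at 10.3 (6.27 to 18.0), and of chromosome 11 from 45066697 to 45069024, with 96.3 at 8.21 (5.38 to 13.1). The density intervals of these 5 overlap.

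Regions of the same width in domains of 20 kb or more were close to the members. Their median ChIP density was 161 tags per kb (quartiles 137 and 196), their median input density 15.4 against 13.7 in the members, and their pooled ratio 10.1 (10.0 to 10.3). By autosome, the member ratio was above theirs on 11 of 20, with a mean difference of -0.35 ± 1.75 (SD over 20 autosomes, members minus the others), which is smaller than that spread. Median ChIP density was lower in the members on 13 of 20 autosomes, by -10.3 ± 22.9 tags per kb. Input density was lower in the members on 15 of 20, by -1.25 ± 1.58 tags per kb. At 2 to 2.5 kb the members had a pooled ratio of 9.33 (9.17 to 9.49) and the others 8.50 (8.29 to 8.71). The members were also higher at 2.5 to 3 kb, with 9.92 (9.72 to 10.11) against 9.74 (9.49 to 9.996), where the intervals overlap, and at 3 to 3.5 kb, with 10.5 (10.3 to 10.8) against 9.42 (9.18 to 9.67). At 3.5 to 4 kb the order was the opposite, with 10.8 (10.5 to 11.04) in the members and 11.5 (11.2 to 11.9) in the others. At 4 to 5 kb the ratios were 11.6 (11.4 to 11.9) and 11.8 (11.5 to 12.1), so that the members were higher in 3 of 5 width classes. Differences were not tested, since both sets were cut from the same calls.

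Wider and narrower regions lay on either side of the members. The 479 regions of 5 to 10 kb had a median of 208 ChIP tags per kb and a pooled ratio of 13.3 (13.2 to 13.4), and the 203 of them in domains under 20 kb had 191 and 12.5 (12.4 to 12.7). The 7573 regions of 0.5 to 2 kb in domains under 20 kb had 121 tags per kb and a pooled ratio of 7.93 (7.88 to 7.98). The median fold was 7.59 in that narrow class, 10.05 in the members and 12.89 at 5 to 10 kb. Pooled input density varied less, with 14.6, 14.4 and 15.03 tags per kb.

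**Figure D4:**
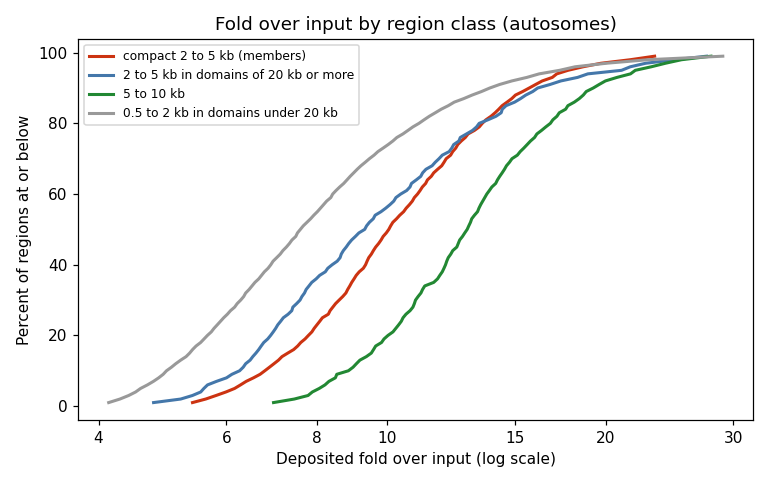
Percent of regions (percentiles 1 to 99) at or below a given deposited fold over input (log scale) for the members, for regions of the same width in domains of 20 kb or more, for regions of 5 to 10 kb and for regions of 0.5 to 2 kb in domains under 20 kb. The member median of 10.05 lies between those of the narrow and the wide class, 7.59 and 12.89, and the member curve crosses that of the same width class in broad domains and, at the highest percentiles, that of the narrow class.

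The number of members differed between autosomes more than their density did. Members numbered from 28 on chromosome 15 to 141 on chromosome 1. Per Mb of span, counted to the end of the last listed region, they averaged 0.486 ± 0.184 (SD over 20 autosomes). Chromosome 20 had the most, 0.883 per Mb (0.657 to 1.16). Chromosomes 10 and 12 came next, at 0.785 (0.629 to 0.967) and 0.771 (0.556 to 1.04). Chromosome 4 had the fewest, 0.217 (0.163 to 0.284), and chromosomes 15 and 2 had 0.244 (0.162 to 0.353) and 0.256 (0.201 to 0.322). The intervals of the 3 highest overlap, as do those of the 3 lowest, and the 2 sets lie apart. Without the high-input members chromosome 20 had 0.71 per Mb (0.509 to 0.963), and chromosomes 10 and 12 were then above it with 0.785 and 0.753.

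Set against all listed regions, members made up 14.3 ± 3.7 per 1000. This share was highest on chromosome 20, with 23.9 per 1000, ahead of chromosome 7 with 19.3. Without high-input members the 2 were nearly level, at 19.2 and 19.05. The share was lowest on chromosomes 4, 13 and 15, with 9.55, 9.56 and 9.65. Chromosome 10 was second in members per Mb but held 14.3 per 1000, close to the mean of the autosomes. Of the regions of 2 to 5 kb, 56.4% on chromosome 9 and 83.3% on chromosome 11 lay in domains under 20 kb. On chromosome 11 this share rests on 30 members and 6 other regions.

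Median ChIP density per autosome was 157 ± 7.7 tags per kb, from 145 on chromosome 7 to 178 on chromosome 12, and the quartile range of every autosome overlapped with that of every other. The pooled ratio was 10.2 ± 0.59. It was highest on chromosome 10, 11.4 (11.0 to 11.8), and lowest on chromosome 11, 9.16 (8.64 to 9.70). The intervals of those 2 autosomes do not overlap, but they cover counting error only. Median input density ran from 12.2 tags per kb on chromosome 14 to 15.7 on chromosome 13.

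**Figure D5:**
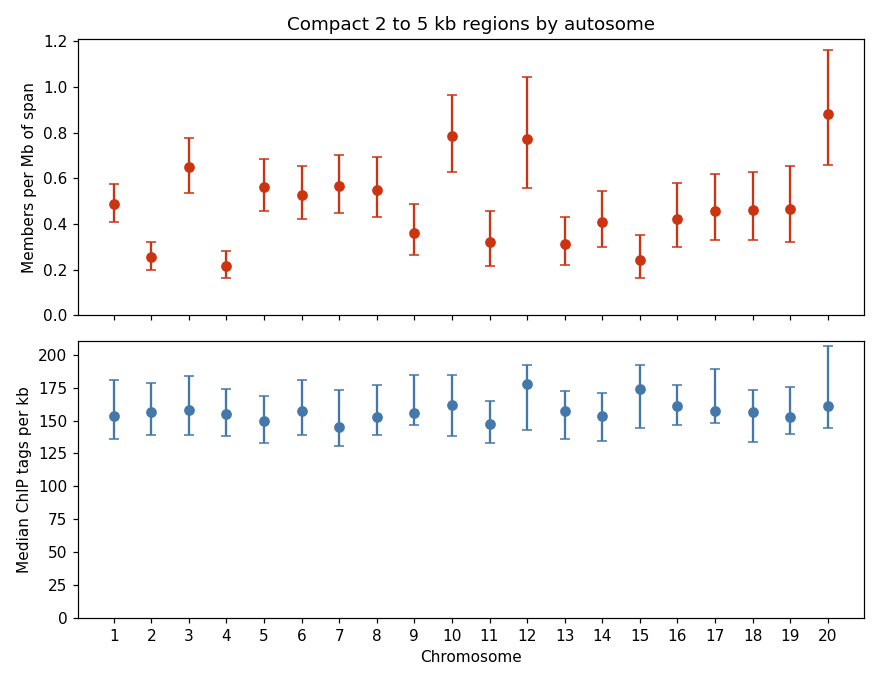
Upper panel, members per Mb of span on each of the 20 autosomes with 95% exact Poisson intervals. Lower panel, median ChIP tags per kb of the members with bars from the first to the last quartile. Members per Mb range from 0.217 to 0.883, while the medians stay between 145 and 178 tags per kb.

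Members lay close to other listed regions, and most lay over 50 kb from regions of 5 kb or wider. The gap to the nearest listed region, of any width, had a median of 0.347 kb (quartiles 0.267 and 0.555 kb). A neighbour within 50 kb was found for 1242 of 1245 members. Short gaps were not particular to members. The median was 311 bp for regions of the same width in domains of 20 kb or more. It was 322 bp at 5 to 10 kb and 406 bp at 0.5 to 2 kb in domains under 20 kb. Over all autosomal regions the median was 998 bp, and with a 95th percentile of 48010 bp most had a neighbour within 50 kb. No gap between listed autosomal regions was under 220 bp, the difference between the caller's minimum distance of 370 bp and its peak size of 150 bp. The 38 members alone in their domain had a median gap of 8.15 kb. The nearest region of 5 kb or wider lay at a median of 1007 kb, and within 50 kb of 165 members (13.3%). The nearest domain of 20 kb or more lay at a median of 1322 kb. It was over 1 Mb away from 710 members (57.0%) and within 10 kb of 31 (2.49%). Distances to wide regions and to these domains were not measured for other classes. The rule itself places members outside domains of 20 kb or more. Density differed little with the distance from such domains. The 130 members within 50 kb of one had a median of 150.2 tags per kb and a pooled ratio of 10.5 (10.2 to 10.8), and the 710 members over 1 Mb away had 156 and 10.2 (10.1 to 10.3).

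In the median, other members were nearer than regions of 5 kb or wider were. The list has 1245 members and 479 autosomal regions of 5 to 10 kb. The 258 members that share a domain with another have it within 20 kb by the rule. Both favour a shorter gap to members, and nothing is read from the order. The median gap to the next member was 254 kb, 395 members (31.7%) had another within 50 kb, and 311 (24.98%) had none within 1 Mb. Members lay in 763 of 2755 autosomal 1 Mb bins (27.7%). A single member was found in 476 of them, and 52 bins with 4 or more members held 233. The largest number in a bin was 7, reached on chromosome 1 from 272000001 to 273000000, on chromosome 3 from 167000001 to 168000000 and in the chromosome 20 bin of high input. The first 2 had median ChIP densities of 147 and 171 tags per kb, median input densities of 12.6 and 11.6, and pooled ratios of 12.2 (10.8 to 13.8) and 12.9 (11.5 to 14.6). The chromosome 20 bin, with 374 ChIP and 43.3 input tags per kb in the median member, had the lower ratio of 9.33.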

How the data were processed

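The members, the domain rule and the classes compared were chosen with earlier results of these data known. Per the file headers, the authors called regions with HOMER findPeaks in region mode (peak size 150 bp, minimum distance 370 bp, 14 tags per window, fold of 4 and Poisson p of 1e-04 over input) on combined tags. CASAVA 1.8.2 and Bowtie are named in the submitters' processing notes. The sources used here give neither the versions of Bowtie and HOMER nor the build. On 13 of 21 chromosomes the list extends beyond the last GRCr8 gene, and the GRCr8 tables of genes and promoter sequences were not used with these positions.

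The deposited ChIP signal is a tag number scaled to 10000000 tags. Tags were recovered from it with the header total and lay within 0.234 of a whole number in 100% of regions. The deposited input signal is a tag number, with 0.5 written for 0. The deposited ratio is the fold over input. The deposited score, p-value and clonality ratio were not used. The deposited region size equals end minus start. Whether starts count from 0 or 1 is not given, and positions are printed as in the list.

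Ratios carry exact binomial (Clopper-Pearson) intervals, and densities and numbers per Mb exact Poisson intervals. Tags carry no molecular identifiers. Members to name were the extremes of density, ratio, input, gap and domain size, those at the limits, and domains with 3 members. The pairs inside domains, the high-input set and its bins, the densest members outside that set and the member nearest to the medians were chosen after their values were seen. Scripts (Python 3.11.15, pandas 2.3.3, scipy 1.17.1) were tested on simulated data. Alternatives changed the merging distance, limits, regions and summaries.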

Additional observations from a re-analysis of the deposited data

Results flagged for a closer look

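Regions of the same kind on X lie outside the autosomes and were looked at separately. X held 12 regions of 2 to 5 kb in domains under 20 kb among its 606 listed regions. That is 0.0779 per Mb (95% exact Poisson interval 0.0402 to 0.136), below the lowest autosome. X also had fewer listed regions than any autosome, where they numbered from 2131 to 11274. As a share of listed regions, 12 of 606 is above the autosomal mean of 14.3 per 1000. The 12 regions carried signal above input, with a pooled ChIP to input ratio of 13.1 (11.9 to 14.5). Their median ChIP density was 161 tags per kb and their median input density 10.2 tags per kb. The ChIP density was near the member median of 155, and the input density was below the lowest autosomal median of 12.2. The rats were male, and a fold of 4 over input is a condition of being listed. None of the 45 regions on unplaced or random scaffolds was 2 kb or wider, the widest being 1699 bp.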

How the results depend on the processing

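Depth per library is not known, and a member has a median of 39 input tags, which limits single ratios more than ChIP densities. The number of members, 1245, was 593 with merging at 10 kb, 693 in domains under 10 kb, 496 at widths of 3 to 5 kb and 38 for members alone in their domain. The values below left the 95% counting interval (medians: exact binomial interval of the median) of the value given above. Merging at 1 kb gave a pooled ratio of 10.2 and a median input of 14.1 tags per kb. Merging at 10 kb gave an input of 13.2 tags per kb and a median gap of 0.364 kb. Domains under 10 kb gave 153 ChIP and 13.2 input tags per kb and a gap of 0.374 kb. Widths of 3 to 5 kb gave 166 ChIP tags per kb and a ratio of 11.0. Regions at or above the median fold gave 164 ChIP and 12.6 input tags per kb, a ratio of 11.8 and a gap of 0.491 kb. Members alone in their domain gave a ratio of 11.1, an input of 13.04 tags per kb and a gap of 8.15 kb. The median deposited fold was 10.05 in place of the pooled ratio, and pooled tags over pooled length gave 169 ChIP tags per kb in place of the median of 155. Per 1000 listed regions the members averaged 14.3 in place of 0.486 per Mb, which is another unit. The cause of each shift was not tested. Domains under 40 kb, adding X, leaving out chromosome 1, leaving out members without input tags (there were none) and, added after seeing the data, leaving out the 17 high-input members moved no value out of its interval and the number of members by less than 1.5 times. No paired analysis was possible because the list is 1 combined set with no value per library, and for the same reason no replicate could be left out.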
